A study of Mus musculus with 4 samples.

Results

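The 9 genes described here encode transcription factors that guide the myogenic lineage from the muscle stem cell to the differentiating myocyte. They were chosen by gene name for their place in the lineage, with Pax7 and Pax3 for the stem cell, Myf5, Myod1, Msc and Six4 for the activated myoblast, and Myog, Mef2c and Myf6 for the differentiating cell. All 9 were found, each in a single row, among the 55573 genes of the table. Ribosome profiling (Ribo-seq), which sequences the stretches of mRNA covered by ribosomes, was performed on primary myoblasts from hind-limb muscle of 3-week-old mice, grown for 2 days with FGF (10 ug/ml) in serum-containing medium. The comparison asks which mRNAs lose ribosomes when eIF5A, a translation factor that carries the modified amino acid hypusine, is removed from muscle stem cells. There were 2 libraries of wild-type cells (WT) and 2 labelled eIF5A knockout (KO).

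The KO mice were Pax7-CreERT2/+; eIF5A f/f and had received tamoxifen, so that the floxed gene is cut in cells in which the Pax7 locus is active. The WT controls were littermates, given as Pax7-CreERT2/+ in one place of the study's text and as Pax7+/+; eIF5A f/f in another. The Cre sits in the Pax7 locus, which is also one of the genes described, and whether its presence alters Pax7 footprints was not tested. Cells were plated from digested muscle without a stated sort. Cycloheximide, which stops ribosomes on the mRNA, was added to all cells before lysis, for 10 minutes by the sample labels and for 1 minute by the series' design text. The study calls the Ribo-seq experiments duplicates, without saying that they came from separate animals or cultures, so p-values measure only the spread between these libraries, which may be technical.

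Pax7 is the factor that marks and maintains satellite cells, the stem cells of skeletal muscle, and Pax3 is its close relative. Myf5, Myod1, Myog and Myf6 are the myogenic regulatory factors, a family of basic helix-loop-helix (bHLH) proteins that pair with E proteins on the E-box, CANNTG. Myf5 and Myod1 commit and activate the myoblast, and Myog drives terminal differentiation. Msc (MyoR) is a bHLH repressor of the same sites, Six4 is a homeobox factor that binds the MEF3 motif, TCAGGTT, and Mef2c is a MADS-box partner of the bHLH factors. eIF5A is best known for relieving ribosomes that stall where several prolines follow each other.

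The coding sequences therefore show first how many such stretches the members hold. In GENCODE vM21 (GRCm38) Mef2c, read from transcript Mef2c-202, was the only member whose protein had 3 consecutive prolines, and it had 2 such runs, at codons 155 to 157 and 259 to 261. Such a run was present in 20.06% of the 21418 mouse proteins read in the same way. Myod1 had none, although 11.6% of its 318 residues were proline and 7 runs of 2 occurred. The longest run was 2 in Pax7, Pax3, Msc, Six4, Myog and Myf6 and 1 in Myf5. The most proline-rich 12 codons of Myod1 and Myog are shown beside the runs of Mef2c because these genes had the most footprints or the runs themselves. Proline codons of the counted stretch are in capitals, and the Mef2c lines show each run with the 4 codons on either side.
Myod1 codons 271 to 282, exon 3, chr7:46378248-46378283, plus strand: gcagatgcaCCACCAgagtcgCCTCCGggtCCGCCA
Myog codons 22 to 33, exon 1, chr1:134290119-134290154, plus strand: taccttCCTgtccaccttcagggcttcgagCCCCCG
Mef2c codons 151 to 161, exons 6 and 7, chr13:83625602-83625607 and chr13:83633055-83633081, plus strand: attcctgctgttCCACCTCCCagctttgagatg
Mef2c codons 255 to 265, exon 9, chr13:83652885-83652917, plus strand: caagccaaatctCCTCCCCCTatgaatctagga

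The factors also differ in sequence composition and kinship. Coding GC content was 65.2% in Myod1, 66.5% in Msc, 61.2% in Pax7 and 60.4% in Myog, against a median of 51.9% over all coding genes, and was 50.6% in Mef2c. The translated proteins of Myf5 and Myod1 were identical at 55.3% of aligned residues, and those of Myog and Myf6 at 56.1%. Over the best stretch of 60 residues, identity was 88.3% for the first pair and 83.3% for the second. Pax7 and Pax3 shared 78.8% of aligned residues.

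RefSeq promoter windows (GRCm38.p6) matched 5 of the 9 members, namely Pax7, Myf5, Six4, Myog and Mef2c. The 250 bases before the Myog start, chr1:134289754-134290003 on the plus strand, are shown because Myog is a classical target of the other factors, and E-boxes and the MEF3 motif are in capitals.
Myog: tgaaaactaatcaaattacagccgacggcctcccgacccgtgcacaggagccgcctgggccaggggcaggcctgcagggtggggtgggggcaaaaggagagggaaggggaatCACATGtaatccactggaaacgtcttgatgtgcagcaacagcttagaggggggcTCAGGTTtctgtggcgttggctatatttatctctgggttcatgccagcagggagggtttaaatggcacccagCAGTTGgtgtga
The E-boxes began 138 and 12 bases before the start, and TCAGGTT began 84 bases before it. Positions are counted from the RefSeq start, which lies a few bases inside the Myog gene bounds of the deposited table given below, so the nearer E-box falls within those bounds. Both strands were searched. In windows of 300 bases (250 before and 50 after the start) CANNTG was present in 72.31% of 32851 promoters and TCAGGTT in 4.07%, so the E-box letters by themselves are common. No motif of either kind lay in the windows of Pax7 and Myf5.

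The libraries held 642429 to 704006 recovered gene-assigned reads, of which protein-coding genes received 33.9% and 41.5% in WT and 59.2% and 65.4% in the KO-labelled libraries. The 9 members together received 123 to 305 reads per library, and 3 of the 9 (Pax7, Myod1 and Mef2c) had more than 3 reads in every library. Values of 3 reads or fewer are treated as not told from 0, and 3 reads in a library is called the floor. Levels are RPKM (reads per kilobase of gene, scaled by the authors so that the typical gene has the same level in every library). Over protein-coding genes, chi-square per degree of freedom, which sampling noise alone would bring to about 1, was 6.94 for the pair of WT replicates, 5.28 for the pair of KO-labelled replicates and 3.61 to 10.2 for the 4 pairs across groups. It was 6.94 or more for WT replicate 1 with each other library, but also 7.56 for WT replicate 2 with KO-labelled replicate 1. Results for the members are given with and without WT replicate 1 where that library carries the value. Eif5a had 34.9 and 65.2 RPKM in WT replicates 1 and 2 against 60.3 and 59.4 RPKM in the KO-labelled libraries, so the targeted gene did not separate the groups. Every direction below is therefore between KO-labelled libraries and WT. These levels are sums over whole genes, and a footprint level combines how much mRNA there is with how many ribosomes it carries.

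Of the 9 members, both KO-labelled libraries lay below both WT libraries for 5 (Pax7, Myf5, Myod1, Six4 and Myog) and above both for 1 (Mef2c), and the groups overlapped for 3 (Pax3, Msc and Myf6). Among all 18961 genes with a read in any library, 14.7% lay lower without overlap and 15.3% higher. The difference of log2(RPKM + 1) was tested with limma on the 11363 genes whose RPKM averaged 1 or more, which left 6 of the 9 members. After Benjamini-Hochberg adjustment over all genes, 0 of the members passed a threshold of 0.05, where 0.106% of the genes tested did. At an unadjusted p-value under 0.05, 3 members were lower (Pax7, Myf5 and Myog), where 4.46% of the genes tested were. Myf5 and Six4 passed the filter through their WT values, their mean being under 1 RPKM in the KO-labelled libraries, and Mef2c through its KO-labelled values. With voom on the recovered reads, 0 members passed the adjusted threshold, where 0.695% of all genes did, and 5 were lower at an unadjusted p-value under 0.05, where 7.31% of all genes were. An exact permutation test of 2 against 2 libraries cannot give a two-sided p-value under 0.333, which is what each of the 6 members without overlap gave.

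**Figure D1:**
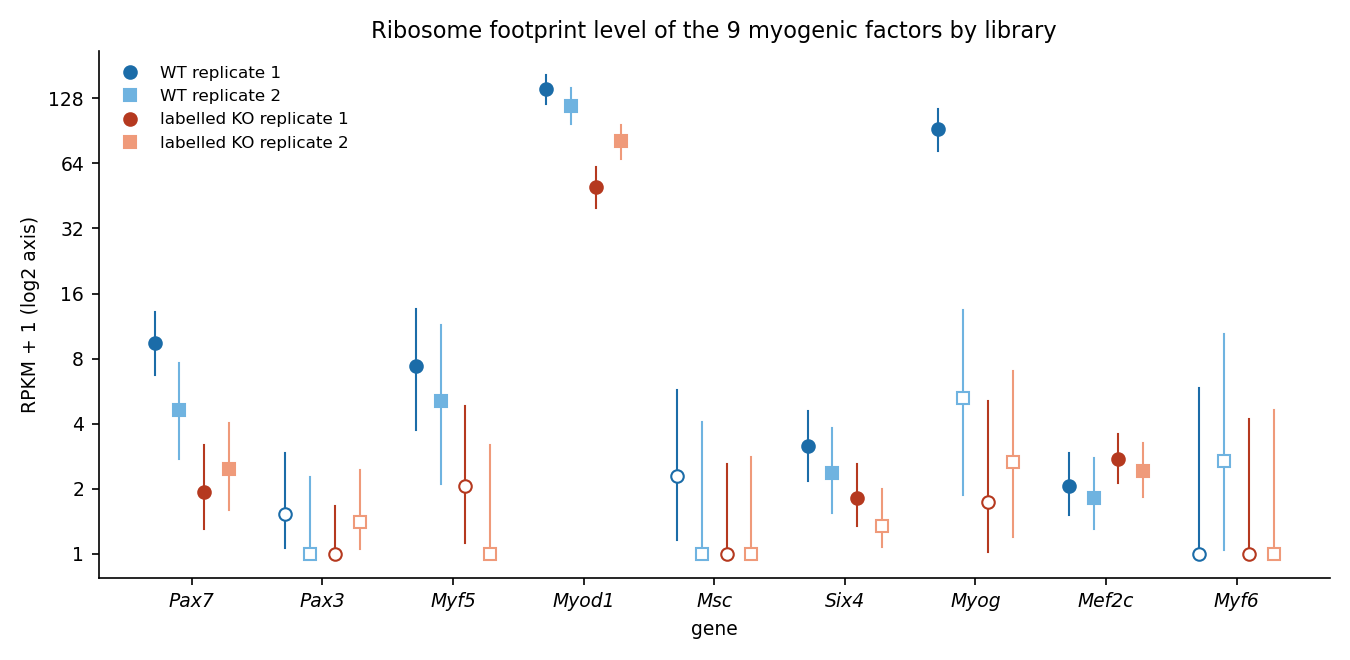
RPKM + 1 on a log2 axis for the 9 genes, from stem cell (left) to differentiating cell (right), with 1 symbol for each library, an open symbol for 3 reads or fewer and vertical lines for the exact 95% Poisson interval of the reads. Myod1 was the highest member in every library, and Myog stood at 91.0 RPKM in WT replicate 1 and at 4.26 RPKM or less elsewhere.

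Among the stem cell factors, Pax7 (ENSMUSG00000028736, GRCm38 chromosome 4, 139737062 to 139833528, minus strand) had 30 and 10 reads in WT replicates 1 and 2 against 5 and 7 in the KO-labelled libraries. These were 8.49 and 3.62 RPKM in WT against 0.941 and 1.48 RPKM in the KO-labelled libraries. WT replicate 1 was the highest library, and the groups did not overlap. The group means were 6.06 ± 3.44 RPKM in WT against 1.21 ± 0.381 RPKM in the KO-labelled libraries (SD, n = 2), which is 5.01-fold lower. The log2 difference was -1.59 ± 0.50 (SE, 95% interval -2.83 to -0.36, limma adjusted p-value 0.660). Without WT replicate 1 it was -1.08, and the mean level was 2.99-fold lower. Counting error alone gave 1.74 to 6.66 RPKM for WT replicate 2 and 0.595 to 3.05 RPKM for KO-labelled replicate 2 (exact 95% Poisson intervals), so those 2 libraries were not separated at this depth. In footprints of bulk samples such as these, fewer cells of a type, fewer transcripts per cell and fewer ribosomes per transcript cannot be told apart.

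Pax3 (ENSMUSG00000004872, chromosome 1, 78101267 to 78197134, minus strand), which acts beside Pax7 in embryonic muscle precursors, was at the limit of detection. It had 2 and 0 reads in WT replicates 1 and 2 against 0 and 2 reads in the KO-labelled libraries. No library was above the floor, so that Pax3 gives no fold.

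Myf5 (ENSMUSG00000000435, chromosome 10, 107482908 to 107486134, minus strand), the first myogenic regulatory factor of the lineage, had 8 and 4 reads in WT against 2 and 0 reads in the KO-labelled libraries. These were 6.37 and 4.08 RPKM in WT replicates 1 and 2, and 1.06 and 0 RPKM in KO-labelled replicates 1 and 2. Both KO-labelled libraries were under the floor of 3 reads. The pooled read rate in WT was 9.58 times that in the KO-labelled libraries, with an exact 95% interval of 2.13 to 88.1 for counting error only, and 7.28 times (1.04 to 80.5) without WT replicate 1. The log2 difference was -2.09 ± 0.56 (SE), its limma adjusted p-value was 0.629, and the difference was -1.82 without WT replicate 1. The gene next to it on the chromosome, Myf6, is taken up with the late factors.

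Myod1 (ENSMUSG00000009471, chromosome 7, 46376474 to 46379099, plus strand), the factor whose protein marks the activated satellite cell, was the best measured member. It reached 139.9 and 117.5 RPKM in WT replicates 1 and 2, from 157 and 103 reads, and 48.6 and 79.8 RPKM in KO-labelled replicates 1 and 2, from 82 and 120 reads. In WT replicate 1 its level was above that of 99.7% of protein-coding genes, in WT replicate 2 above 99.4%, and in the KO-labelled libraries above 98.0% and 98.9%. Myod1 thus stayed among the most ribosome-covered mRNAs of every library. The lowest WT library and the highest KO-labelled library were separated narrowly, with exact 95% Poisson intervals of 95.9 to 142.5 RPKM and 66.2 to 95.5 RPKM.

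The mean level of Myod1 was 128.7 ± 15.9 RPKM in WT against 64.2 ± 22.1 RPKM in the KO-labelled libraries (SD, n = 2), a ratio of 0.499. The log2 difference of -1.03 ± 0.48 (SE, 95% interval -2.22 to 0.16) did not pass the threshold, its limma adjusted p-value being 0.676. Leaving out 1 library at a time moved it between -1.38 and -0.68, and WT replicate 1 was not the library that carried it, since the difference without that library was -0.90. Per 100000 reads on protein-coding genes, Myod1 took 58.3 and 47.3 reads in WT against 17.8 and 31.2 reads in the KO-labelled libraries. Scaled instead to all recovered reads the Myod1 groups overlapped and its difference was -0.42, where the median gene moved to 0.49. Once each library's trend on coding GC content and coding length was removed, the Myod1 difference was -0.61.

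Msc (ENSMUSG00000025930, chromosome 1, 14753346 to 14755992, minus strand), the bHLH repressor, had 2 reads in WT replicate 1 and 0 in the other 3 libraries. It gives no fold. The overlapping antisense gene Gm9947 had 0 reads in all 4 libraries, and no other member overlapped a second gene of the table.

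Six4 (ENSMUSG00000034460, chromosome 12, 73099609 to 73113456, minus strand), a homeobox factor that acts upstream of the bHLH genes, stood at 2.14 and 1.37 RPKM in WT replicates 1 and 2, from 14 and 7 reads. In the KO-labelled libraries it stood at 0.813 and 0.342 RPKM, from 8 and 3 reads. The groups did not overlap, but the values formed a gradual series in which neighbours lay within counting error. The log2 difference was -0.81 ± 0.65 (SE) with a limma adjusted p-value of 0.721, and the groups overlapped when the reads were scaled to library totals.

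Myog (ENSMUSG00000026459, chromosome 1, 134289989 to 134292548, plus strand), the differentiation factor, was decided by a single library. It had 82 reads in WT replicate 1, 3 in WT replicate 2, and 1 and 2 in the KO-labelled libraries. In RPKM these were 91.0, 4.26, 0.738 and 1.66. The 3 libraries other than WT replicate 1 were all at or under the floor and did not differ beyond counting error, with exact 95% Poisson intervals of 0.878 to 12.4 RPKM in WT replicate 2 and 0.200 to 5.98 RPKM in KO-labelled replicate 2.

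The Myog mean in WT was 47.6 ± 61.3 RPKM (SD, n = 2), a spread larger than the mean. The pooled Myog read rate in WT was 45.2 times that in the KO-labelled libraries (exact 95% counting interval 15.0 to 223.8), nearly all from WT replicate 1. Without WT replicate 1 both groups were at or under the floor and no fold can be given. The log2 difference was -3.36 ± 1.27 (SE), with a limma adjusted p-value of 0.672, and went from -1.29 without WT replicate 1 to -5.42 without WT replicate 2.

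Mef2c (ENSMUSG00000005583, chromosome 13, 83504034 to 83667080, plus strand), the MADS-box partner of the late bHLH factors, was the only member higher in the KO-labelled libraries. It had 1.06 and 0.810 RPKM in WT replicates 1 and 2, from 10 and 6 reads, and 1.75 and 1.42 RPKM in KO-labelled replicates 1 and 2, from 25 and 18 reads. The mean was 0.933 ± 0.173 RPKM in WT against 1.59 ± 0.238 RPKM in the KO-labelled libraries (SD, n = 2), a ratio of 1.70. The log2 difference was 0.42 ± 0.58 (SE, 95% interval -1.02 to 1.86, limma adjusted p-value 0.823). The groups overlapped once the trends on GC content and length were removed. Mef2c is also used outside the muscle lineage, including endothelial cells, whose markers are given below.

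Myf6 (ENSMUSG00000035923, chromosome 10, 107492853 to 107494737, minus strand), a factor of the late myocyte and the fibre, had a single read in WT replicate 2 and 0 in the other 3 libraries. No library exceeded the floor.

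Ordered by RPKM, which is per length, Myod1 was first in each of the 4 libraries. Myog was second in WT replicate 1 by a wide margin and was not told apart from Pax7 and Myf5 in WT replicate 2. Pax7 and Myf5 did not differ in level beyond their counting error in any library. Six4 and Mef2c had lower values than both in each WT library, and in the KO-labelled libraries the RPKM of Mef2c lay within the counting error of Pax7. The place of Mef2c depends on the length used, since its gene length is 15715 bases against 5860 for Pax7, whereas their coding sequences are 1452 and 1515 bases long. In reads, Mef2c was above Pax7 in both KO-labelled libraries, with 25 against 5 and 18 against 7, and the Poisson intervals did not overlap in KO-labelled replicate 1.

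**Figure D2:**
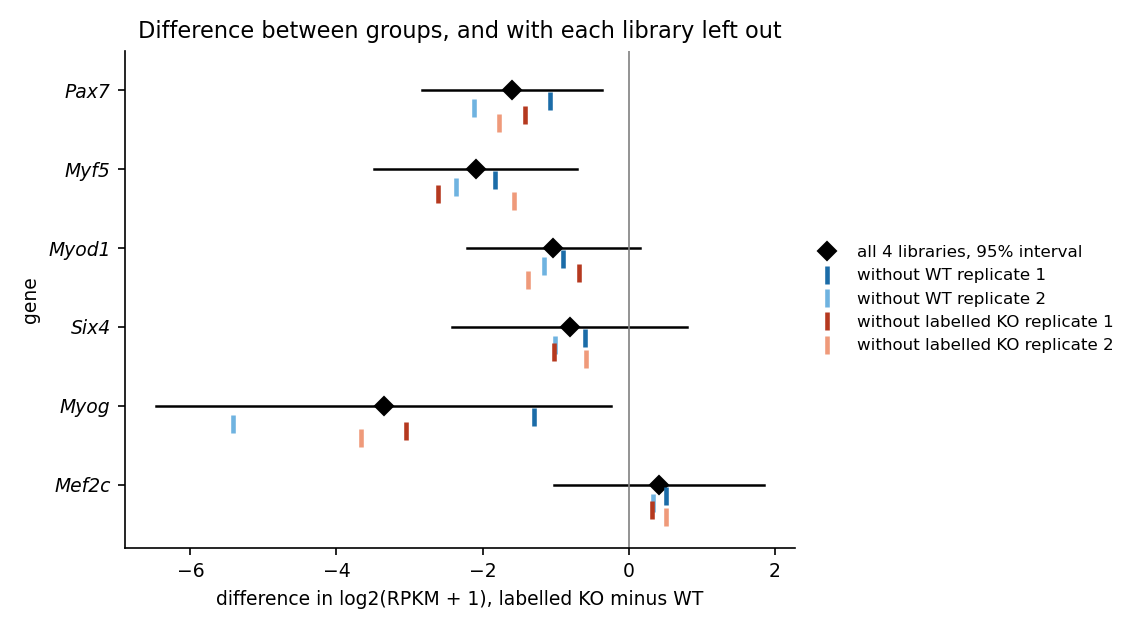
Difference in log2(RPKM + 1), labelled KO minus WT, for the 6 members tested (diamonds, with 95% intervals from limma), and the same difference with each library left out (coloured ticks). Myog moved from -5.42 to -1.29 with the choice of WT library, while Myod1 stayed between -1.38 and -0.68.

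Shares within a library do not depend on how libraries are scaled to each other. Of the reads on Myf5, Myod1, Myog and Myf6, Myod1 took 63.6% (95% Wilson interval 57.4% to 69.3%, 247 reads) in WT replicate 1. It took 92.8% (86.4% to 96.3%, 111 reads) in WT replicate 2. In the KO-labelled libraries it took 96.5% (90.1% to 98.8%, 85 reads) and 98.4% (94.2% to 99.5%, 122 reads). WT replicate 2 was closer in make-up to the KO-labelled libraries than to WT replicate 1.

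Myog took 33.2% (27.6% to 39.3%) of these reads in WT replicate 1, against 2.70% (0.92% to 7.65%) in WT replicate 2. It took 1.18% (0.21% to 6.37%) and 1.64% (0.45% to 5.78%) in the KO-labelled libraries. The last 3 intervals overlapped. Myf5 took 3.24%, 3.60% and 2.35% in the 3 libraries where it was seen, and its 0 of 122 reads in KO-labelled replicate 2 allows a share of up to 2.46% by the 3-read floor, with a Wilson upper limit of 3.05%. The reads carry no molecular identifiers, so these intervals and floors cover counting error only.

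**Figure D3:**
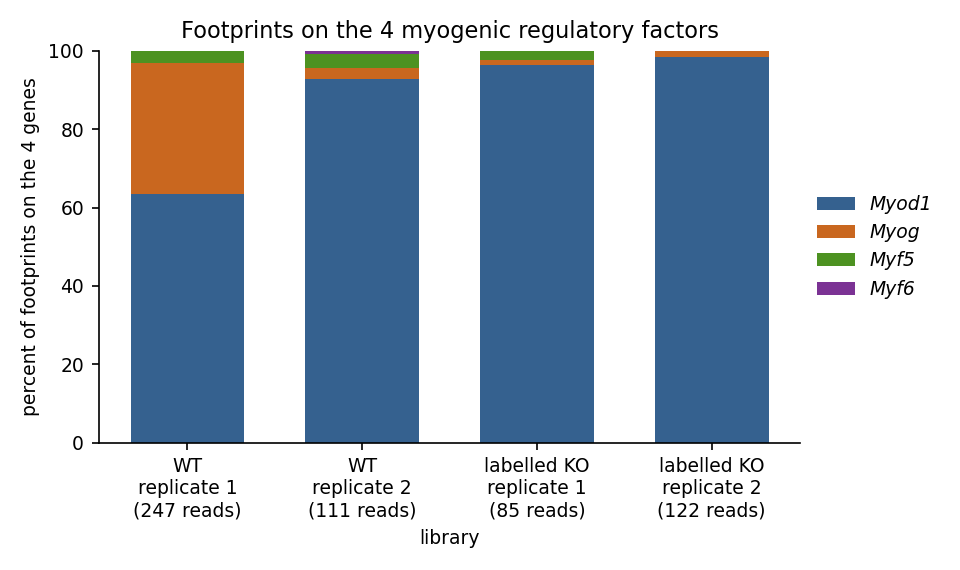
Percent of the footprints on the 4 myogenic regulatory factors that fell on each of them, by library, with the number of reads under each bar. Myog took 33.2% in WT replicate 1 and 1.18% to 2.70% in the other 3 libraries, where Myod1 took nearly all.

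Set beside Myod1 alone, Pax7 took its largest share in WT replicate 1. Of the reads on Pax7 and Myod1 it took 16.04% (11.5% to 22.0%) in that library and 8.85% (4.88% to 15.5%) in WT replicate 2. It took 5.75% (2.48% to 12.8%) and 5.51% (2.70% to 10.9%) in the KO-labelled libraries, whose intervals overlapped that of WT replicate 2. Of the reads on Six4 and Mef2c, Mef2c took 41.7% (24.5% to 61.2%) and 46.1% (23.2% to 70.9%) in WT. It took 75.8% (59.0% to 87.2%) and 85.7% (65.4% to 95.02%) in the KO-labelled libraries. Mef2c had the larger share in both KO-labelled libraries and the smaller in both WT libraries, although each WT interval overlapped at least 1 of the KO-labelled intervals.

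The genes around the factors were read from 4 lists. Of 17 bHLH partners and inhibitors, 14 were tested, 0 passed the adjusted threshold in limma or with voom, 1 was lower at an unadjusted p-value under 0.05 and 0 were higher, where 4.46% of all genes tested were lower and 2.86% higher. Of the 14, 3 passed the filter through WT alone, their mean in the KO-labelled libraries being under 1 RPKM. The median log2 difference was -0.32, against 0.00 over all genes tested. The 1 lower gene was Id2, an inhibitor that sequesters E proteins from the myogenic factors, at 21.1 and 13.9 RPKM in WT against 5.88 and 9.65 RPKM in the KO-labelled libraries. With reads scaled to library totals the list's median was 0.31, but that scaling moved the median over all genes to 0.49, so the list stayed below the typical gene. After removal of the GC and length trends it was -0.09, against 0.01 over all genes. With 1 library left out it ran from -0.38 to -0.25, and 0 genes were lower at an unadjusted p-value under 0.05 when either KO-labelled library was left out. Over all genes tested the share lower at that p-value was 5.70% without WT replicate 1, 6.96% without WT replicate 2, 1.98% without KO-labelled replicate 1 and 2.82% without KO-labelled replicate 2, and counts for the lists without a library are to be read against these shares.

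Of 27 other factors of the myogenic network, 20 were tested. None passed the adjusted threshold in limma or with voom, 4 were lower at an unadjusted p-value under 0.05 (4.46% of all genes tested) and 0 were higher, and the median log2 difference was -0.72. Of the 20, 5 passed the filter through WT alone, Sox8 and Lbx1 among them, and 0 through the KO-labelled libraries alone, so the median and the count lean to lower values by the filter. Sox8, a Sox factor found in satellite cells, had 21 and 4 reads in WT against 3 and 0 reads in the KO-labelled libraries. Lbx1, a homeobox factor of migrating muscle precursors, had 8 and 2 reads in WT against 0 in both KO-labelled libraries. Nfix, a nuclear factor of the fetal muscle programme, was at 23.7 and 18.5 RPKM in WT against 4.35 and 10.8 RPKM in the KO-labelled libraries. Tead2, a DNA-binding partner of Yap, was at 4.85 and 4.88 RPKM in WT against 1.38 and 1.81 RPKM in the KO-labelled libraries. These 4 were picked for their low p-values. Their groups did not overlap, as for the 14.7% of all genes that lay lower, and Lbx1 was above the floor in WT replicate 1 alone. None had more than 105 reads in any library. Without WT replicate 1 the median of the list was -0.35 and 4 genes were lower at an unadjusted p-value under 0.05, whereas 0 were without KO-labelled replicate 1 and 2 without KO-labelled replicate 2. Scaled to library totals 0 genes were lower at that p-value, where 1.49% of all genes tested were. The list's median was then -0.24, against 0.49 over all genes tested. After removal of the GC and length trends the median was -0.30, against 0.01 over all genes.

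The differentiation genes include many targets of Myog and Mef2c. Of 33 in the table, 17 were tested, 0 passed the adjusted threshold in limma, 5 were lower at an unadjusted p-value under 0.05 (4.46% of all genes tested) and 0 were higher, with a median log2 difference of -1.24. Of the 17, 6 passed the filter through WT alone, Chrng and Tnnt3 among them, and 0 through the KO-labelled libraries alone, so this median and count lean the same way. Scaled to library totals the list's median was -0.77, against 0.49 over all genes tested. In that scaling 3 genes were lower at an unadjusted p-value under 0.05, where 1.49% of all genes tested were. After removal of the GC and length trends the median was -1.20. Actc1, the cardiac actin of immature muscle, had 62 reads in WT replicate 1, 5 in WT replicate 2, and 3 and 4 in the KO-labelled libraries. Chrng, the fetal subunit of the muscle acetylcholine receptor, had 18 and 6 reads in WT against 1 and 0 in the KO-labelled libraries. Chrna1, the alpha subunit of that receptor, had 46 and 33 reads in WT against 9 and 16 in the KO-labelled libraries, which is 17.4 and 15.97 RPKM against 2.26 and 4.52 RPKM. Tnnt3, the fast troponin T, had 3 and 4 reads in WT against 1 in each KO-labelled library. Tnnt3 was above the floor in WT replicate 2 alone. Chrna1 was lower in the KO-labelled libraries with little gap between the WT replicates, whereas Actc1, like Myog, was high in WT replicate 1 alone. Without WT replicate 1 the list's median was -0.71 and 3 genes were lower at an unadjusted p-value under 0.05, against 9 without WT replicate 2, 1 without KO-labelled replicate 1 and 3 without KO-labelled replicate 2. With voom, Chrna1 (adjusted p-value 0.0202) and Chrng (adjusted p-value 0.0301) passed the threshold, as 0.695% of all genes did. Chrna1 fell by 2.36 on the log2 scale in that fit. For Chrng the pooled read rate in WT was 38.3 times that in the KO-labelled libraries (exact 95% counting interval 6.25 to 1576), and 21.8 times (2.65 to 1005) without WT replicate 1.

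Of the 31 differentiation genes with a read, 18 had their highest RPKM in WT replicate 1, 5 in WT replicate 2, 5 in KO-labelled replicate 1 and 3 in KO-labelled replicate 2. Of the 20 with more than 3 reads in a library, 15 were highest in WT replicate 1. The share of all genes that were highest in WT replicate 1 was not counted, so whether this is particular to the list was not tested. Neb, Ttn and Myh3 are examples singled out after their values were seen. Neb, which encodes the giant thin-filament protein nebulin, had 121 reads there and 3, 13 and 3 in WT replicate 2 and KO-labelled replicates 1 and 2. Ttn, which encodes titin, had 173 reads there and 26, 40 and 23 in the others. Myh3, the embryonic myosin heavy chain, had 11 reads there and 0, 0 and 1 in the others. Cdkn1a, a cell cycle inhibitor of this list that is also expressed in other cell types, overlapped between the groups, at 142.4 and 116.5 RPKM in WT against 112.3 and 151.2 RPKM in the KO-labelled libraries.

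Of 18 satellite cell genes other than the members, 15 were tested, 0 passed the adjusted threshold in limma, 2 were lower at an unadjusted p-value under 0.05 (4.46% of all genes tested) and 0 were higher, with a median log2 difference of -0.48. Scaled to library totals the median was 0.11, against 0.49 over all genes, with 1 gene lower and 1 higher at that p-value. In that scaling 1.49% of all genes tested were lower and 1683 of 11327 were higher. Fgfr4, an FGF receptor of the muscle lineage, had 66 and 16 reads in WT against 6 and 9 in the KO-labelled libraries, and its adjusted p-value was 0.0260 with voom. The mean RPKM of Fgfr4 was 8.08-fold lower in the KO-labelled libraries, and 3.825-fold lower without WT replicate 1. Des, the intermediate filament protein desmin, was at 46.0 and 40.1 RPKM in WT against 13.8 and 21.4 RPKM in the KO-labelled libraries. Without WT replicate 1 the median of this list was -0.09, and 0 genes were lower and 1 (Spry1) was higher at an unadjusted p-value under 0.05. Spry1 had 14 and 1 reads in WT against 7 and 8 in the KO-labelled libraries, so WT replicate 2 was under the floor. With all 4 libraries its log2 difference was 0.03. Of the 18 genes, 7 were lower in the KO-labelled libraries without overlap, where 14.7% of all genes with a read were. Only 1 was higher without overlap, where 15.3% were. That was Vcam1, an adhesion receptor singled out after its values were seen. It was at 16.5 ± 4.97 RPKM in the KO-labelled libraries against 8.57 ± 4.46 RPKM in WT (SD, n = 2), with a limma adjusted p-value of 0.686. Without KO-labelled replicate 1 the count of lower genes was 0, and it was 1 without WT replicate 2 or KO-labelled replicate 2.

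**Figure D4:**
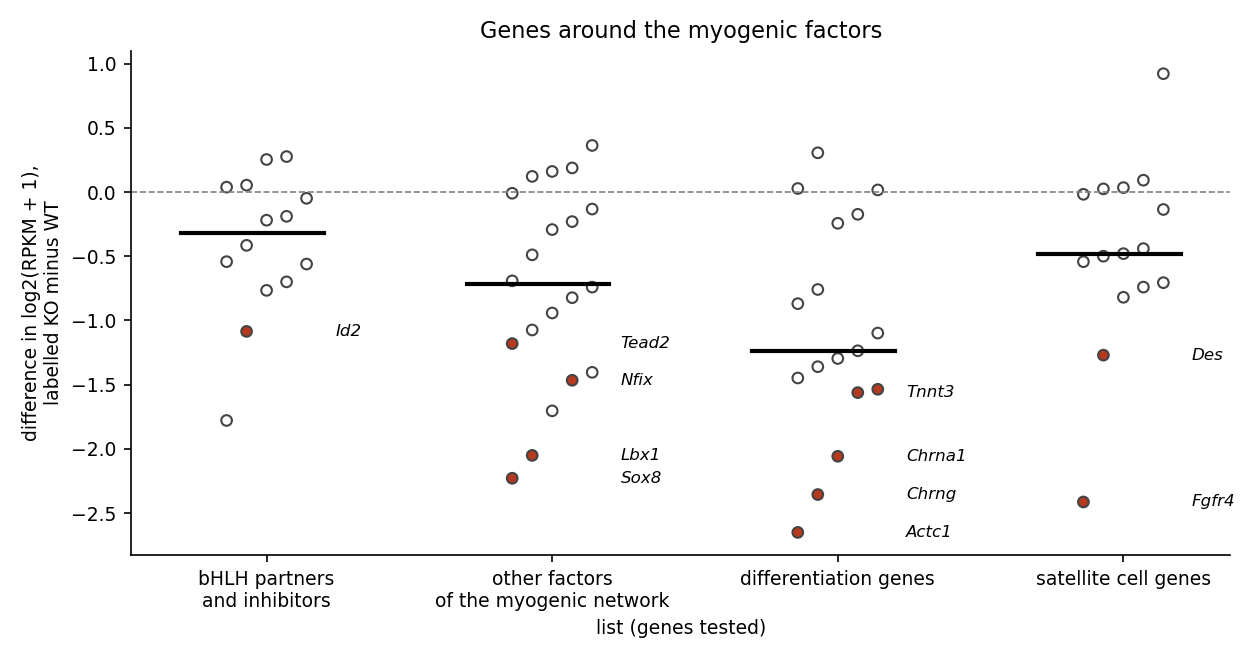
Difference in log2(RPKM + 1), labelled KO minus WT, for each tested gene of the 4 lists, with filled points for an unadjusted p-value under 0.05, names for up to 4 of these per list, bars for the list medians and a dashed line for the median of all genes tested. The differentiation genes had the lowest median, -1.24, and no gene of the lists passed the adjusted threshold in limma.

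By the shape of their levels over the 4 libraries, the 5 protein-coding genes nearest to Myod1 were Zkscan17, Cdr2l, Usp36, Ctdsp2 and Git1. Their root mean square distance to Myod1 was 0.046 to 0.065 on the centred log2(RPKM + 1) scale, where the median over 4082 genes with at least 80 reads was 0.73. A total of 143 genes lay within 0.25 of Myod1, so its pattern was shared by many. Git1, for instance, was at 36.7 and 28.1 RPKM in WT against 10.7 and 19.4 RPKM in the KO-labelled libraries. The 5 nearest to Myog were Fgfr4, Cxcl14, Gas1, Mt2 and Hr, at distances of 1.01 to 1.16, where the median distance to Myog was 2.31. For Myog, 0 genes lay within 0.25. Cxcl14, the nearest of these after Fgfr4, had 102 reads in WT replicate 1 and 5, 17 and 10 in the other libraries. Likeness over 4 libraries is a description and rests on the same libraries as the levels.

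Markers of the cell types that such a culture can hold were summed by library. All 8 myoblast markers, which include Pax7, Myf5 and Myod1, were tested, all 8 had negative log2 differences (Itga7 only -0.02) and 4 were lower at an unadjusted p-value under 0.05, where 4.46% of all genes tested were. The 4 were Pax7, Myf5, Des and Chrna1, which are all counted above and add no new genes, and Myf5 passed the filter through WT alone. That count was 0 without WT replicate 1, 1 without WT replicate 2, 2 without KO-labelled replicate 1 and 3 without KO-labelled replicate 2, and 7 of the 8 differences were negative without WT replicate 1, without KO-labelled replicate 2, scaled to library totals or after removal of the GC and length trends. Their summed level was 253.9 and 198.3 RPKM in WT against 100.2 and 121.7 RPKM in the KO-labelled libraries, without overlap, and Myf5 was at 0 in 1 KO-labelled library. The summed level of 11 fibroblast and fibro-adipogenic markers was 620.6 and 419.5 RPKM in WT against 1016 and 484.1 RPKM in the KO-labelled libraries, with 9 of 11 differences positive, a median of 0.51 and 0 markers at 0 in any library. Without KO-labelled replicate 1, 6 of the 11 were positive and the median was 0.04, whereas 10 were positive without WT replicate 1 (median 0.90) or KO-labelled replicate 2 (median 0.96). Dcn, the proteoglycan decorin, was at 239.5 and 125.8 RPKM in WT against 459.9 and 171.1 RPKM in the KO-labelled libraries. Ly6a, the surface protein Sca1, was at 150.0 and 133.9 RPKM in WT against 214.1 and 129.5 RPKM in the KO-labelled libraries. The fibroblast sum was above the myoblast sum in every library, and for the sum, Dcn and Ly6a the groups overlapped. Of the 11 fibroblast markers, 4 (Pdgfra, Lum, Mfap5 and Postn) were higher in both KO-labelled libraries than in both WT libraries, where 15.3% of all genes were. A further 1 (Fbln1) was lower in both, where 14.7% of all genes were. Postn, which encodes periostin, had an unadjusted p-value of 0.0168 and a limma adjusted p-value of 0.650, and these 5 genes were singled out after their values were seen.

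Endothelial markers, led by Cdh5 and Esam, summed to 192.3 to 230.1 RPKM in all 4 libraries, with 0 of 8 markers at 0. Of the 8, 5 (Pecam1, Tie1, Tek, Kdr and Emcn) were higher in both KO-labelled libraries than in both WT libraries, as Mef2c was and as 15.3% of all genes with a read were. Pecam1 was nearly level, at 21.5 ± 0.502 RPKM in WT against 22.2 ± 0.362 RPKM in the KO-labelled libraries (SD, n = 2). For Cdh5, Esam and Egfl7 the groups overlapped, with log2 differences of 0.19, -0.06 and -0.56. Kdr, a VEGF receptor singled out after its values were seen, was at 8.85 ± 1.65 RPKM in the KO-labelled libraries against 3.89 ± 0.820 RPKM in WT (SD, n = 2), with a limma adjusted p-value of 0.672, and the part of endothelial cells in the Mef2c difference was not tested. Immune markers, led by Cd14 and Cd68, summed to 45.7 to 60.6 RPKM, and Itgam and C1qa were at 0 in every library. Of the 8 immune markers, 3 (Cd14, Adgre1 and Csf1r) were higher without overlap in the KO-labelled libraries, where 15.3% of all genes with a read were. Another 2 (Cd68 and Lyz2) were lower without overlap, where 14.7% of all genes with a read were. Csf1r had 1 and 0 reads in WT against 6 in each KO-labelled library and was not tested. Adgre1, a macrophage marker singled out after its values were seen, had 1 and 3 reads in WT against 13 and 11 in the KO-labelled libraries (limma adjusted p-value 0.672). Lyz2 went the other way, at 11.3 and 12.9 RPKM in WT against 4.19 and 5.65 RPKM in the KO-labelled libraries (limma adjusted p-value 0.660). Of the 4 immune markers tested, 2 had positive and 2 negative differences, with a median of 0.05. Smooth muscle and pericyte markers, led by Rgs5 and Mcam, summed to 52.9 RPKM in WT replicate 1 and to 31.8 to 32.7 RPKM in the other 3 libraries. Of the 7, 3 (Rgs5, Notch3 and Abcc9) were lower in the KO-labelled libraries without overlap, where 14.7% of all genes with a read were. Kcnj8 was higher without overlap, where 15.3% were. Schwann cell markers, led by Ngfr and Sox10, summed to 59.0 and 17.9 RPKM in WT against 36.2 and 25.9 RPKM in the KO-labelled libraries. Pax7, Myf5 and Myod1 are part of the myoblast sum, and Myod1 alone makes up much of it, so those levels are not independent of it. Myog did not follow the sum in WT replicate 2, where it was at 4.26 RPKM. The part of cell make-up in the differences of the members was not tested.

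**Figure D5:**
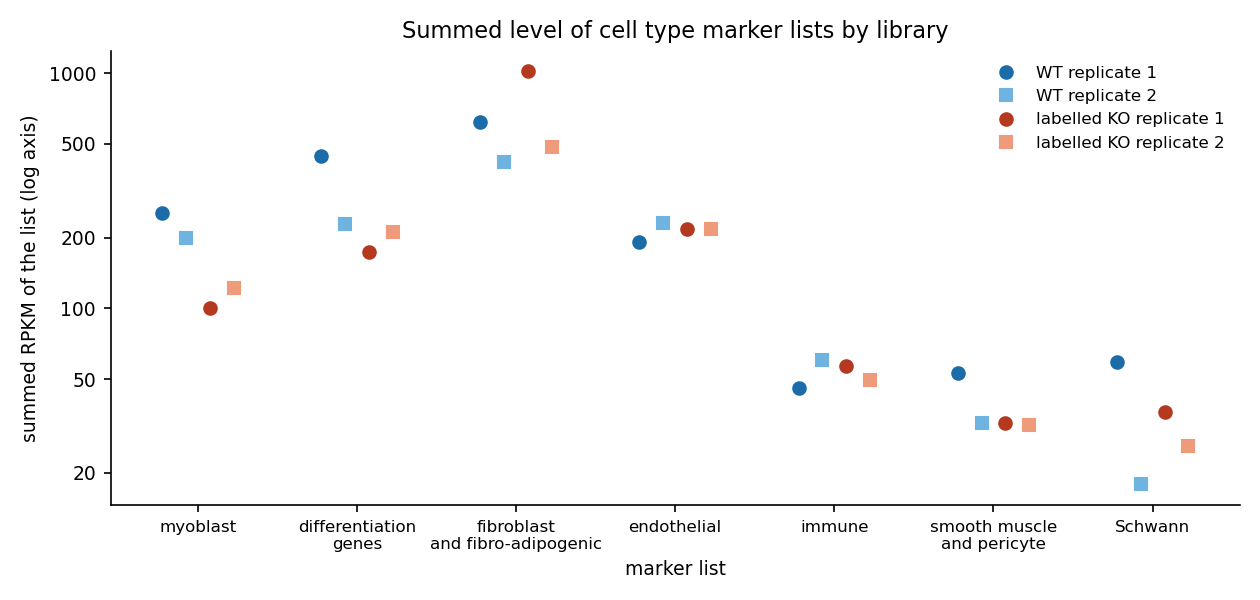
Summed RPKM of each marker list by library, on a log axis. The myoblast markers were 253.9 and 198.3 in WT and 100.2 and 121.7 in the KO-labelled libraries, the differentiation genes were highest in WT replicate 1, and the endothelial sums stayed between 192.3 and 230.1.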

How the data were processed

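Ribosome-protected fragments from 4 libraries (2 WT, 2 labelled KO) were aligned by the authors with TopHat2 to mm10 and counted per gene with HTSeq, per the labels. How reads matching several places and strand were handled is not given in the sources used here. The deposited values are RPKM for 55573 genes. Each value times its gene length, in units of the lowest such product above 0 in its library, came out whole for 100.0% of values (tolerance 0.01), which gave the reads. The implied denominators followed median-of-ratios size factors, so a shift common to most genes is not visible.

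Log2(RPKM + 1) was tested with limma 3.58.1 in R 4.3.3 (group as the only term, mean-variance trend, two-sided, Benjamini-Hochberg, threshold 0.05) on genes whose RPKM averaged 1 or more. This scale understates the change of low genes. The fit was first tested on simulated data. Shares have 95% Wilson and reads exact Poisson intervals.

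The members, lists and tests were chosen with earlier results of these data known. The text names all members, Eif5a, up to 4 genes per list with an unadjusted p-value under 0.05 and the largest differences, the 5 genes nearest to Myod1 and to Myog, and the 2 highest genes per marker list. Outside this rule, and with values in view, the text names Neb, Ttn, Myh3, Cdkn1a, Spry1, Vcam1, Itga7 and marker genes beyond the 2 highest. Alternatives were a pseudocount of 0.1, no filter, a mean RPKM of at least 5, no trend, voom on recovered reads, 2 other scalings (the one to protein-coding reads was chosen after seeing the data), protein-coding genes alone, a replicate block, removal of GC and length trends, both together, and each library left out.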

Additional observations from a re-analysis of the deposited data

How the results depend on the processing

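No member passed the adjusted threshold under any alternative, and each of the 6 tested members kept its direction wherever it could be fitted. With 2 libraries a group, missing the threshold says nothing of stability. Scaling to total reads moved the median of all genes by 0.49. A mean RPKM of at least 5 kept only Myod1 and Myog of them. With all 4 libraries, the alternatives gave -1.14 to -0.42 for Myod1, -4.04 to -2.92 for Myog, -2.22 to -1.17 for Pax7, -3.93 to -1.73 for Myf5, -1.62 to -0.51 for Six4 and 0.24 to 0.74 for Mef2c. The 6 members without overlap between groups were 4 scaled to total reads (Myod1 and Six4 then overlapped), 5 with the GC and length trends removed (Mef2c overlapped), and 6 to 8 of the 9 with 1 library left out, where fewer values leave less room for overlap. Eif5a reversed to -0.12 without WT replicate 1, and ranged from -0.12 to 0.76 with 1 library left out.

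The number of genes called, 12, was 0 with a pseudocount of 0.1, with no filter, with a mean RPKM of at least 5, with no mean-variance trend, scaled to total reads, for protein-coding genes alone, with the replicate block, with the GC and length trends removed, with both together, and with 1 library left out (lowest 0, highest 0). It was 79 with voom and 13 scaled to protein-coding reads. The cause was not tested. The replicate block cannot move a difference in this balanced design, so Myod1 is at -1.03 in it too, and its adjusted p-value was 0.667. The shared replicate numbers do not pair the libraries by the labels, and the correlation of deviations was 0.07 over 9877 genes in 2 pairs. Where a library is left out, the lone library of its group is assumed to vary like the other group.

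Depth limits every member but Myod1: the exact 95% Poisson interval of 10 reads, the Pax7 count in WT replicate 2, runs from 4.795 to 18.4 reads.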
